A study of Mus musculus with 5 samples.

Results

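Secondary mouse embryonic fibroblasts were profiled by chromatin immunoprecipitation and sequencing, and the E2F4 library is set here directly against the RNA polymerase II (RNA Pol II) library, without the whole cell extract (WCE) as a divisor. The members are the 500-bp bins of chromosomes 1 to 19 that held at least 20 reads summed over the 2 libraries. They numbered 26734 of 4924874 autosomal bins, or 0.543%, while 1709589 bins held at least 1 read of either library. The bins were chosen by the measured reads of the same libraries that are compared, so the ratios are a description and carry no test. Bins with 19 reads, just outside the limit, numbered 859 and had a median ratio of 0.296. Bins with 20 reads, just inside it, numbered 786 and had a median ratio of 0.278.

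E2F4 is a transcription factor of the E2F family that binds near the start sites of cell cycle genes. With the pocket proteins it is mainly known as a repressor in resting cells and in early G1, although E2F sites are also occupied by the activating members of the family later in the cycle. RNA polymerase II transcribes protein-coding genes. The antibody 8WG16 binds the tail of heptad repeats on its largest subunit and prefers the form with few phosphates, which is found mainly at promoters before elongation. Promoters therefore can carry both signals, and long stretches of polymerase without E2F4 can lie over transcribed genes.

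The fibroblasts descended from induced pluripotent cells with doxycycline-inducible Oct4, Klf4 and Sox2 and a selectable cassette at Oct4, which had been injected into BDF2 blastocysts. They were taken from chimeric embryos at 13.5 days post coitum, and puromycin at 2 µg/ml over 48 hours kept the offspring of the injected cells, per the labels' protocols. All libraries come from these cells, the labels name no doxycycline in the medium, and the number of embryos behind a library is not stated there. Antibody SC-1082 served for E2F4, MMS-126R (8WG16) for RNA Pol II and AB6002 for trimethylated lysine 27 of histone H3 (H3K27me3, the mark of Polycomb group proteins), with 1 library each, and WCE without antibody has 2 libraries. Fibroblast marker genes were not checked, because the gene table used here is of another build than the reads. In bulk chromatin, fewer cells with a bound protein and less protein bound per cell cannot be told apart.

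Counted once per position and strand, the E2F4 library had 1971874 autosomal reads and the RNA Pol II library 3111606. The H3K27me3 library had 9483163, and the WCE libraries had 417799 (replicate 1) and 11226593 (replicate 2). The ratio used throughout is E2F4 reads over RNA Pol II reads, divided by 0.634, the ratio of the 2 autosomal totals. A ratio of 1 thus means an equal share of each library, not equal amounts of protein on the DNA, since antibodies differ in yield. Each ratio has an exact (Clopper-Pearson) interval at 95% that covers counting error only, and reads amplified over 18 cycles are not independent molecules. The compared bins held 22.7% of all E2F4 reads and 55.7% of all RNA Pol II reads. The same bins held 1.92% of H3K27me3 reads, 0.479% of the reads of WCE replicate 1 and 4.15% of those of WCE replicate 2.

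Most bins leaned to RNA Pol II. Over the bins, the median count was 7 reads for E2F4 and 46 for RNA Pol II. The median ratio, taken separately, was 0.225, so that RNA Pol II stood 4.44-fold higher (quartiles over bins, 2.11-fold to 8.71-fold). RNA Pol II was at least 3-fold higher in 17296 bins (64.7% of those compared) and E2F4 in 1113 bins (4.16%), called RNA Pol II-rich and E2F4-rich bins from here on. The remaining 8325 bins (31.1%) lay within 3-fold of equal shares. Counting error alone left 20251 bins (75.7%) with an interval wholly on the RNA Pol II side and 1863 bins (6.97%) with an interval wholly on the E2F4 side. These counts are the background against which the classes below are to be read, and since the bins were chosen on the same reads, nothing further is read from them.

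**Figure D1:**
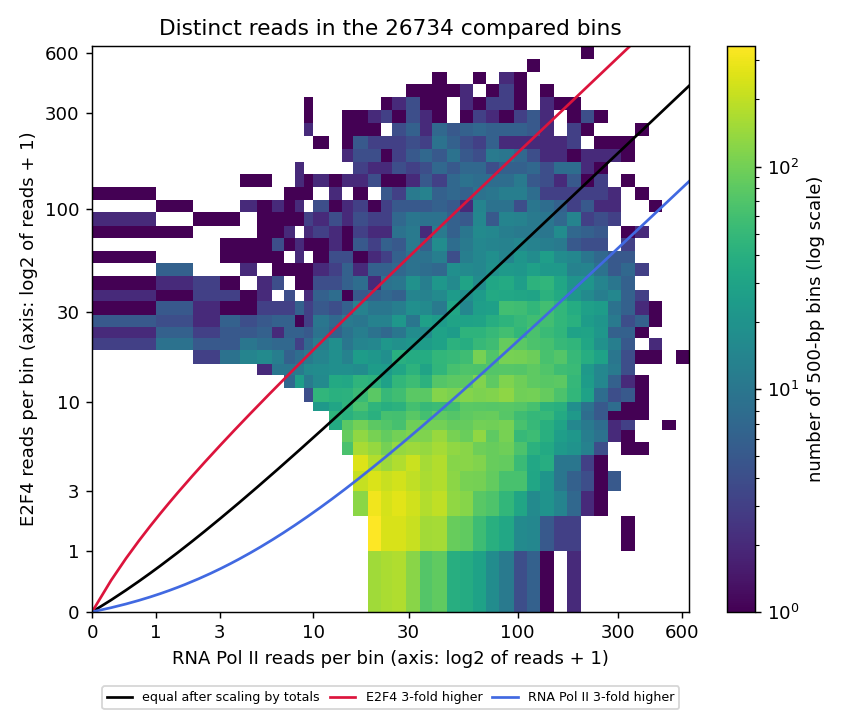
Distinct reads of RNA Pol II (horizontal axis) and E2F4 (vertical axis) in each of the 26734 compared bins, both axes as log2 of reads + 1 and the colour giving the number of bins on a log scale. The black line marks equal shares of the libraries and the coloured lines a 3-fold excess of either. The densest squares lie below the blue line, and the bins with most E2F4 reads lie above the red line.

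The distribution had a long shoulder towards E2F4. The ratio was 0.0322 at the 5th percentile and 0.0570 at the 10th, against 1.17 at the 90th and 2.49 at the 95th. On the log2 scale the quartiles were -3.12, -2.15 and -1.08. Pooled over all compared bins, 446739 E2F4 reads and 1733679 RNA Pol II reads gave a ratio of 0.407, above the median, because the bins with most E2F4 reads weigh more in a sum.

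Where equal shares lie depends on the scale. Scaled instead on 1569269 background bins with 1 to 3 reads over both libraries, the reads of E2F4 per read of RNA Pol II were 1.39, and all log2 ratios moved by -1.13 to a median of -3.28. Scaled on the reads of the compared bins themselves, that ratio was 0.258, and all log2 ratios moved by 1.30 to a median of -0.85. RNA Pol II was at least 3-fold higher in 83.9% and E2F4 in 1.80% of bins on the background scale, and in 30.4% and 9.64% on the scale of the compared bins. The median stayed on the side of RNA Pol II on each of these scales, and the order of the bins is the same on all of them.

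**Figure D2:**
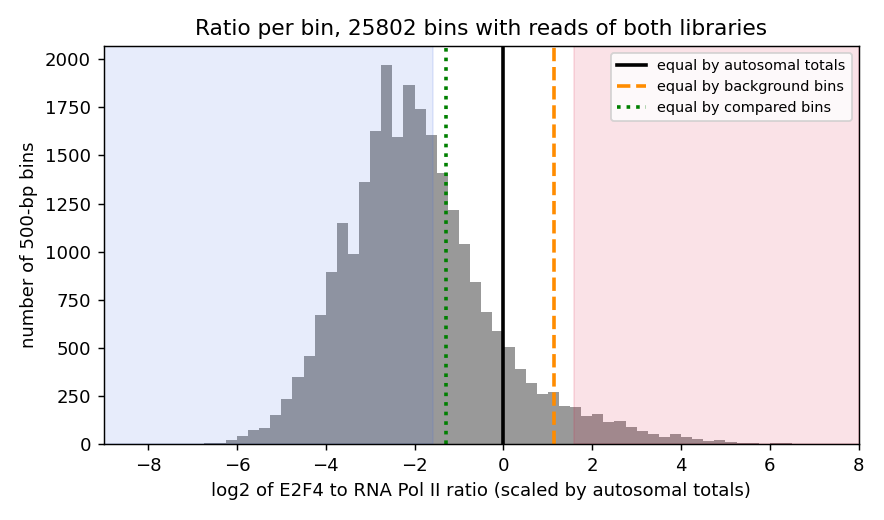
Number of compared bins by log2 of the E2F4 to RNA Pol II ratio, scaled by autosomal totals, for bins with reads of both libraries. The shaded areas mark a 3-fold excess of RNA Pol II (left) or E2F4 (right), and the vertical lines mark equal shares on each of the 3 scales. The bulk of the bins lies to the left of the black line, and the dashed line of the background scale lies farther to the right.

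Among bins with at least 20 E2F4 reads, whatever their ratio, polymerase did not climb with E2F4. Among the 2111 bins with 20 to 29 E2F4 reads the median RNA Pol II count was 88 (quartiles 45 to 138), and among the 495 bins with 100 to 199 E2F4 reads it was 67 (37 to 108). In the 55 bins with 300 to 580 E2F4 reads it was 66 (33.5 to 98). Polymerase was thus present at most of the strongest E2F4 bins, though at no higher level than in weaker ones. E2F4 was at least 3-fold higher in 267 of the 495 bins with 100 to 199 reads, in 142 of the 166 with 200 to 299 and in 53 of the 55 above. These shares follow in part from sorting bins by the numerator of the ratio.

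Sorted by RNA Pol II, the E2F4 count did climb, more slowly than the polymerase. It was 3 in the median of the 5106 bins with 20 to 29 RNA Pol II reads, 9 in the 7099 bins with 50 to 99, 15 in the 4524 bins with 100 to 199, 21 in the 748 bins with 200 to 299 and 26.5 in the 132 bins with 300 to 578. The median ratio fell along the same classes from 0.218 to 0.201, 0.175, 0.145 and 0.123. Of the 132 bins richest in RNA Pol II, 123 held at least 3-fold more of it by share, against 64.7% of all compared bins. The fall of the ratio and this count follow in part from sorting bins by the denominator of the ratio.

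Bins with at least 20 reads of each library, where neither count is near 0, numbered 4773. Their median ratio was 0.646, with E2F4 at least 3-fold higher in 531 (11.1%) and RNA Pol II in 1066 (22.3%). By total reads, the median ratio was 0.263 in bins with 20 to 29 reads, 0.208 with 50 to 99, 0.239 with 200 to 299 and 0.407 with 300 to 399. It was 1.86 in the 95 bins with at least 400, of which 38.9% were E2F4-rich and 32.6% RNA Pol II-rich by at least 3-fold. The heaviest bins therefore held both extremes in similar numbers.

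The extremes are given by position on build mm8, with reads of E2F4 and RNA Pol II in each bin. The 5 bins whose lower limit was highest are named first. At chr1:90576501-90577000, 116 E2F4 reads (54 on the plus and 62 on the minus strand) stood against 0 RNA Pol II reads. Set against the floor of 3 counts, E2F4 was at least 61.0-fold higher, and the exact lower limit at 95%, the more cautious bound by which the bins were ranked, was 48.8. The 2 kb on either side of this bin held 3 reads of E2F4 and 1 of RNA Pol II, so the E2F4 signal was a single isolated bin.

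The next bins had more reads around them. At chr17:31938001-31938500 there were 92 E2F4 reads and 0 of RNA Pol II, at least 48.4-fold higher for E2F4 (exact lower limit 38.6), and the flanks held 48 and 15 reads. At chr5:123255001-123255500 there were 79 and 0 reads, at least 41.6-fold higher (33.0), with 8 and 6 reads in the flanks. At chr2:128031501-128032000 there were 110 and 1 reads, a ratio of 174 (interval 30.5 to 6918), with 25 and 23 reads in the flanks. RNA Pol II reads in the flanks of these 3 bins thus ran from 6 to 23, more than beside the first bin.

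The bin at chr5:114534501-114535000 differed from the others in the histone mark. It held 88 E2F4 reads and 0 of RNA Pol II, at least 46.3-fold higher for E2F4 (36.9), with 11 and 3 reads in the flanks. It also held 63 reads of H3K27me3, against 1 to 7 in the other 4 bins of this list, and 1 read of WCE replicate 2, against 10 to 17. WCE replicate 1 had 0 reads in all 5 bins.

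The 5 bins with the lowest upper limit of the ratio lay mostly inside longer stretches of polymerase. At chr19:5801001-5801500 there were 355 RNA Pol II reads, 178 on the plus and 177 on the minus strand, and 1 E2F4 read. RNA Pol II was 225-fold higher (interval 40.1 to 8911), and the bin is part of a joined region of 12000 bp. Its flanks of 2 kb held 1128 RNA Pol II and 34 E2F4 reads. At chr11:86397001-86397500, in another region of 12000 bp, 173 RNA Pol II reads stood against 0 of E2F4, at least 36.5-fold higher (exact lower limit 29.4), and the flanks held 1263 and 23 reads. Polymerase thus continued beyond these bins, while E2F4 reads around them were few beside those of RNA Pol II.

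The longest region of all, 22000 bp at chr11:94749001-94771000, held the bin chr11:94752001-94752500 with 407 RNA Pol II and 5 E2F4 reads, a 51.6-fold difference (interval 21.9 to 160). With repeats of a position kept it held 1120 and 6 reads, a 131-fold difference. A pair of bins on chromosome 7 had less polymerase around them. At chr7:110418501-110419000 there were 175 RNA Pol II reads and 0 of E2F4, at least 37.0-fold higher (29.7), with 156 and 9 reads in the flanks. At chr7:98691501-98692000 there were 139 and 0 reads, at least 29.4-fold higher (23.6), with 231 and 26 in the flanks. H3K27me3 counts were 1 to 12 over these 5 bins and WCE replicate 2 counts were 11 to 27.

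**Figure D3:**
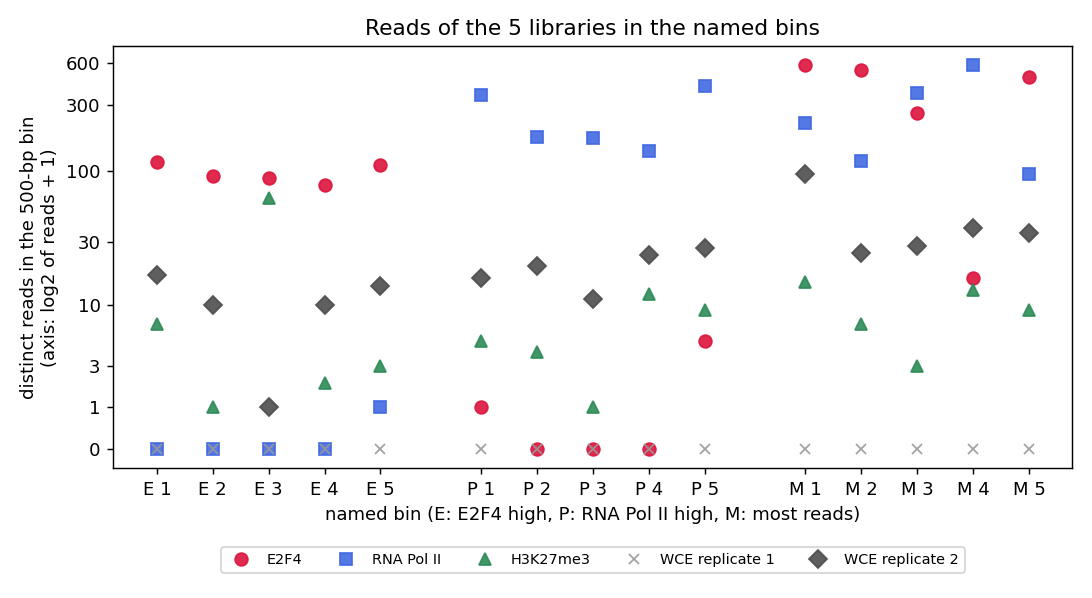
Distinct reads of all 5 libraries (vertical axis, log2 of reads + 1) in the 15 named bins, in the order E2F4-rich, RNA Pol II-rich and most reads, each list by rank. In the E2F4-rich bins E2F4 stands at 79 to 116 reads and RNA Pol II at 0 or 1, in the RNA Pol II-rich bins RNA Pol II stands at 139 to 407 and E2F4 at 0 to 5, and the third E2F4-rich bin has 63 reads of H3K27me3.

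The bins with most reads showed that strong E2F4 and strong polymerase can share 500 bp. The bin with most E2F4 reads, chr1:90108501-90109000, held 580 of E2F4 and 220 of RNA Pol II, a ratio of 4.16 (3.56 to 4.88). It also had 94 reads of WCE replicate 2, against 25 to 38 in the other 4 bins of this list, and the part of that in its ratio was not tested. At chr15:57965001-57965500 there were 538 and 118 reads, a ratio of 7.19 (5.88 to 8.86), and at chr12:70087001-70087500 there were 480 and 95, a ratio of 7.97 (6.39 to 10.04). With repeats of a position kept, the 3 ratios were 15.4, 11.8 and 14.4. Of the 1000 combinations of position and strand in a bin, 580 held an E2F4 read in the first of these bins, so the distinct count is bounded. In these 3 bins E2F4 exceeded a polymerase signal that was itself well above the median bin.

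The other bins of this list held more RNA Pol II than E2F4 reads. At chr2:30296001-30296500, 263 E2F4 and 367 RNA Pol II reads gave a ratio of 1.13 (0.962 to 1.33), whose interval includes equal shares. With repeats of a position kept it held 500 and 875 reads, and the ratio of 0.815 (0.729 to 0.911) lay on the RNA Pol II side. It was 0.517 on the background scale and 2.78 on the scale of the compared bins, so its side is set by the processing. At chr5:143171501-143172000, 16 E2F4 and 578 RNA Pol II reads, the highest RNA Pol II count of all bins, made RNA Pol II 22.9-fold higher (14.0 to 40.3), and 50.1-fold with repeats kept.

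Bins without a read of one library were more often without E2F4, which had the fewer reads in all and in the median bin. No E2F4 read was found in 913 bins (3.42%), where RNA Pol II counts ran from 20 to 175 with a median of 27, and 337 of these had at least 20 E2F4 reads within 2 kb. No RNA Pol II read was found in 19 bins, where E2F4 counts ran from 20 to 116 with a median of 28. RNA Pol II reads within 2 kb of those 19 bins ran from 1 to 176 with a median of 4, and 4 of the bins had at least 20. At this depth a count of 0 in a bin allows up to 3 reads, or 0.000152% of the E2F4 library and 9.64e-05% of the RNA Pol II library.

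Bins with at most 1 bin between them were joined into 12444 regions. Of these, 9107 (73.2%) held bins with RNA Pol II at least 3-fold higher and none with E2F4 so, 707 (5.68%) held the reverse, 232 (1.86%) held both kinds and 2398 (19.3%) held neither. The regions with E2F4-rich bins alone had medians of 126 E2F4 and 53 RNA Pol II reads, and those with RNA Pol II-rich bins alone had medians of 16 and 137. The median length was 1000 bp in both of these kinds and over all regions.

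Regions of all lengths leaned to polymerase in the median, and the longer ones more so. The median ratio was 0.272 in regions of 1 bin, 0.256 in those of 1000 bp, 0.219 in those of 2500 to 5000 bp and 0.135 in the 51 longer ones. The share of regions in which E2F4 was at least 3-fold higher fell from 5.86% to 4.55%, 0.161% and 0% along the same lengths. A count of 0 of 51 allows a share of up to 5.88% (3 counts of the total). The joined bins were chosen by summed reads, 446739 of E2F4 and 1733679 of RNA Pol II in all. Length thus depends largely on polymerase reads, and these trends follow in part from the joining.

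The neighbours on either side of each bin were also counted, so that a bin could be counted more than once. Of the 2226 neighbours of E2F4-rich bins, 55.3% had fewer than 20 reads, 14.9% were E2F4-rich themselves and 7.50% were RNA Pol II-rich. Of the 34592 neighbours of RNA Pol II-rich bins, 46.6% had fewer than 20 reads, 40.9% were RNA Pol II-rich and 0.483% were E2F4-rich. Among neighbours with at least 20 reads, those of E2F4-rich bins were E2F4-rich in 332 cases, within 3-fold in 495 and RNA Pol II-rich in 167. Those of RNA Pol II-rich bins numbered 167, 4153 and 14142 in the same order. Over all compared bins 4.16% were E2F4-rich and 64.7% RNA Pol II-rich, so both kinds lay beside their own kind more often than that. Most E2F4-rich bins still stood without a second one beside them.

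In the 232 regions with both kinds, the nearest bins of opposite kind were adjacent in 154, 1000 bp apart in 65 and farther in 13, at most 2000 bp. The 3 such regions with most reads, chosen after their values were seen, show how the signals lie. At chr2:30291001-30297000, 10 bins in a row held 19 to 139 RNA Pol II reads and 1 to 15 of E2F4. The bin after them, already named, held 367 and 263, and the last held 4 and 19, a ratio of 7.50 (2.49 to 30.3). Polymerase extended to one side of the E2F4 peak and not to the other.

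At chr3:89503501-89508500 the peaks lay apart. The bin from 89504001 held 250 E2F4 and 36 RNA Pol II reads, a ratio of 10.96 (7.71 to 16.01; 17.2 with repeats of a position kept), and the bin from 89507501 held 9 and 214, so that RNA Pol II was 15.1-fold higher (7.79 to 33.4). The densest points of the libraries were 3302.5 bp apart. At chr12:65992001-65994500 the bin from 65994001 held 244 and 125 reads (ratio 3.08, 2.47 to 3.85, and 4.72 with repeats kept), the bin from 65992501 held 57 and 344, and the densest points were 1645.5 bp apart.

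The other libraries were also read by class of bin. WCE replicate 2 stood at 8.51 times its autosomal mean in E2F4-rich bins, 8.65 times in bins within 3-fold and 7.10 times in RNA Pol II-rich bins, and H3K27me3 stood at 4.10 times in the first and 3.23 times in the last. WCE replicate 1, with the fewest reads, fell in the same order from 2.03 to 1.17 and 0.669 times its mean. It had no read in 91.6%, 94.2% and 95.2% of the bins of these classes, so its values rest on few bins. In the E2F4-rich bins each distinct E2F4 position had been read 1.72 times, against 1.21 times in the RNA Pol II-rich bins. RNA Pol II positions there had been read 1.09 and 1.20 times. The part of these in the ratios was not tested.

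The ratio also went with the reads of WCE replicate 2. Its median was 0.150 in the 1222 bins with 0 to 4 such reads, 0.218 in the 12260 bins with 10 to 19, 0.346 in the 456 bins with 40 to 99 and 2.09 in the 65 bins with at least 100. Left out, those 65 bins changed the count of E2F4-rich bins from 1113 to 1104. A stricter cut removed more. The 99th percentile of WCE reads over all autosomal bins was 13 reads of both WCE libraries together. Only 10312 of the 26734 compared bins lay at or below it, so most lay above it. Of the 10312 bins, 387 (3.75%) were E2F4-rich. By chromosome, the median ratio ran from 0.194 on chromosome 13 to 0.271 on chromosome 12, and the E2F4-rich share from 2.55% on chromosome 3 to 5.09% on chromosome 7. All 19 autosomes thus leaned to RNA Pol II.

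To measure how far apart the proteins lay, each region was widened by 500 bp on either side, and the summit of a library was taken as the median position in its densest 200 bp. Of the 12444 regions, 9881 held at least 10 reads of each library, 2459 held fewer of E2F4 and 104 fewer of RNA Pol II. The median distance between the summits was 117.5 bp (quartiles 57.5 to 248). They lay within 50 bp in 21.6% of regions, within 100 bp in 43.7% (4321 regions, interval 42.7 to 44.7), within 200 bp in 69.1% and within 500 bp in 89.8%. The interval of this share takes regions as independent and does not cover a repeat of the experiment. In 292 regions (2.96%) they were over 1000 bp apart.

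The distance was longer than the error with which a summit is placed. In the 5728 regions with enough reads, summits from even-coordinate and odd-coordinate reads of the same library were compared. They were 34 bp apart in the median for E2F4 and 19 bp for RNA Pol II, within 100 bp in 78.1% and 86.2% of regions. Between the libraries, with the same thinned reads, the median was 134 bp and 38.7% lay within 100 bp. Over 9869 regions, summits of WCE replicate 2 lay 136.5 bp from those of E2F4 and 146 bp from those of RNA Pol II, not far from the 117.5 bp between the antibodies there. Summits of H3K27me3, in 9271 regions, were 385 and 371.5 bp away.

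**Figure D4:**
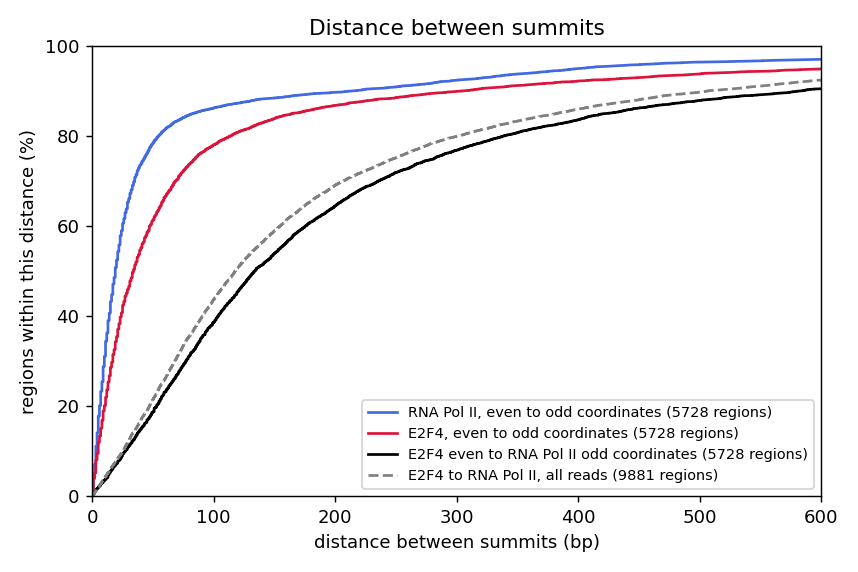
Percentage of regions (vertical axis) with summits no farther apart than the distance on the horizontal axis, for thinned reads within RNA Pol II, within E2F4 and between them (5728 regions each), and dashed for all reads of both (9881 regions). At 100 bp the curves stand at 86.2%, 78.1%, 38.7% and 43.7%.

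More reads brought the summits of E2F4 closer to themselves and not to those of RNA Pol II. In regions of up to 1000 bp with 10 to 19 reads in each thinned set, E2F4 summits differed by 41 bp between the sets, and with 80 to 143 reads by 10 bp. RNA Pol II summits differed by 21 and 20 bp. The distance between the libraries was 103 bp in the first group (1897 regions) and 159 bp in the last (59 regions, of which 18.6% lay within 100 bp). After the common shift of 60 bp the reads of both strands still lay 53 bp apart for E2F4 and 17 bp for RNA Pol II in the median region.

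The ratio made less difference than the length of the region. The median distance was 117.75 bp in the 368 regions with E2F4 at least 3-fold higher, 124 bp in 4244 within 3-fold and 114 bp in 5269 with RNA Pol II at least 3-fold higher. It was 84 bp in regions of 1 bin, 107.5 bp at 1000 bp, 288.5 bp at 2500 to 5000 bp and 461.5 bp in the 51 longer regions. Longer regions leave more room for distant summits.

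Averaged around E2F4 summits, E2F4 was narrow and polymerase broad. Within 100 bp of those summits the level was 651 reads per kb per 10000000 distinct autosomal reads for E2F4 and 756 for RNA Pol II. These were 70.01 and 33.3 times their levels 1500 to 2000 bp away. The level above that of the distance fell by 50% at 125 bp for E2F4 and at 275 bp for RNA Pol II. Around RNA Pol II summits the widths were exchanged, 125 bp for RNA Pol II and 275 bp for E2F4, since each library's own summit was placed on its densest 200 bp, which also raises its level there.

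The other libraries were measured at the same places. At the summits of E2F4 and of RNA Pol II, WCE replicate 2 was 4.87 and 4.77 times its distant level, H3K27me3 1.94 and 2.30 times, and WCE replicate 1 lay below its distant level, at 0.574 and 0.425 times. In the 368 regions with E2F4 at least 3-fold higher, RNA Pol II was still 43.8 times its distant level at the E2F4 summit, where WCE replicate 2 was 6.30 times. In the 5269 regions with RNA Pol II at least 3-fold higher, E2F4 was 21.0 times its distant level at the RNA Pol II summit, with WCE replicate 2 at 4.76 times. These profiles hold only regions with at least 10 reads of each library. The 2459 regions with fewer E2F4 reads and the 104 with fewer RNA Pol II reads are not in them, and this filter itself asks for reads of the lesser protein in the region.

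The ratio changed with distance from the E2F4 summit. It was 0.861 within 100 bp, 0.332 from 100 to 200 bp, 0.239 from 200 to 400 bp and 0.368 from 1000 to 2000 bp. Around RNA Pol II summits it was 0.291 within 100 bp and 0.688 from 100 to 200 bp. Both dips and rises at the centre go the way in which the summits were placed.

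Polymerase lay unevenly about E2F4. In 7705 regions the side with more even-coordinate RNA Pol II reads 250 to 1500 bp from the E2F4 summit was turned to the right, and the odd-coordinate reads, which had not chosen the side, were counted. They numbered 269636 on the chosen side and 66810 on the other, a ratio of 4.04. Over the same sides E2F4 differed 2.36 times, WCE replicate 2 1.47 times and H3K27me3 1.23 times. At 475 bp RNA Pol II stood at 37.1% of its peak on the chosen side and at 8.46% on the other, and E2F4 at 7.61% and 2.93%.

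The RNA Pol II summit, from odd-coordinate reads, lay on the chosen side of the E2F4 summit in 5615 of 7692 regions (73.0%, interval 72.0 to 74.0). This interval, too, takes regions as independent and does not cover a repeat of the experiment. Its median displacement was 117 bp towards that side (quartiles -12 to 297 bp). In the average profile RNA Pol II was highest 75 bp to the chosen side, at a level of 812. Its neighbouring steps were almost as high, with 797 at -25 bp, 810 at 25 bp and 793 at 125 bp. E2F4 was highest at 25 bp, with 806 against 765 at -25 bp. With steps of 50 bp, these profiles do not resolve where each library was highest. Both the side and the displacement come from the RNA Pol II library, from separate reads of it. The direction of transcription was not used.

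**Figure D5:**
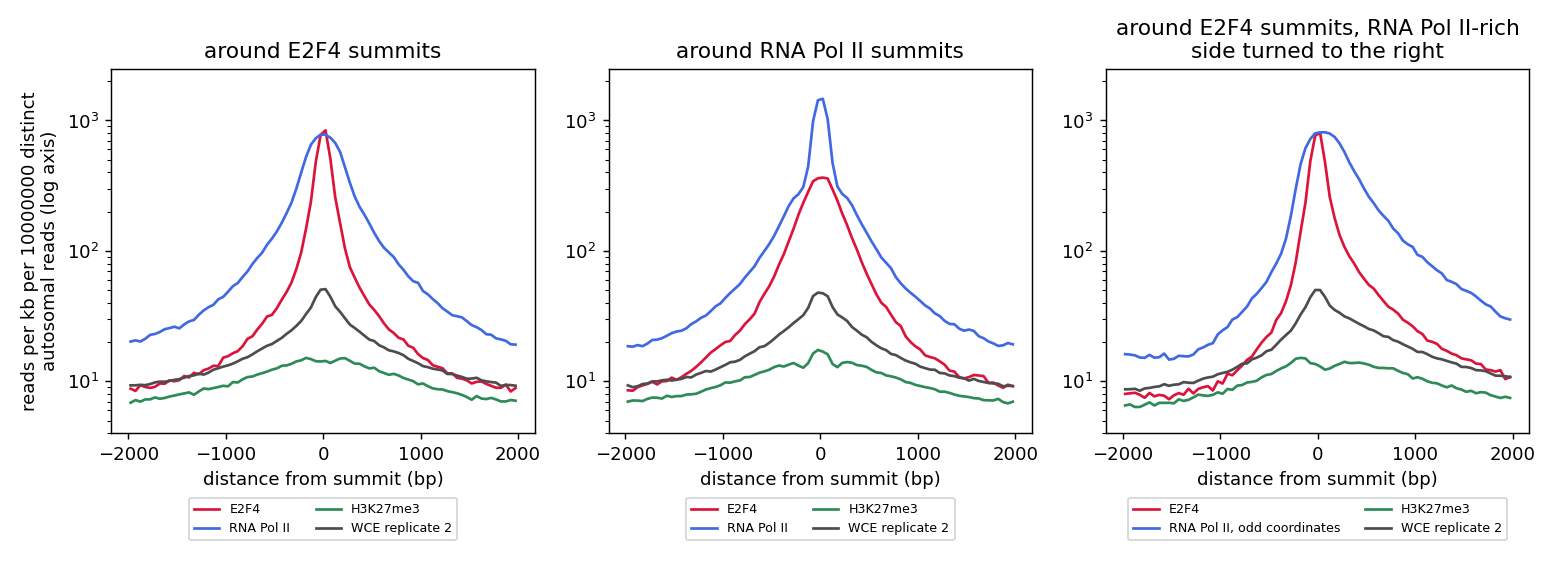
Mean level of E2F4, RNA Pol II, H3K27me3 and WCE replicate 2 (vertical log axis, reads per kb per 10000000 distinct autosomal reads) by distance from E2F4 summits, from RNA Pol II summits and from E2F4 summits with the RNA Pol II-rich side to the right. E2F4 is the narrower curve around its own summits, and in the third panel RNA Pol II at 475 bp is 37.1% of its peak on the right and 8.46% on the left.

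The longest distances between well-read summits were of different kinds. Among 3818 regions with at least 30 reads of each library and 15 in each densest 200 bp, the longest was 6071 bp, at chr11:3052501-3060000. There WCE replicate 2 had 140 reads at the E2F4 summit and 81 at the RNA Pol II summit, against 18 E2F4 and 29 RNA Pol II reads, so the extract without antibody was high at both.

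The next regions had fewer WCE reads than that. At chr10:36826001-36831000 the summits were 3829.5 bp apart, with 15 E2F4 and 16 RNA Pol II reads at the one and 8 and 57 at the other, and WCE replicate 2 had 3 and 7 reads. At chr16:4555001-4559500 they were 3782 bp apart, with 15 and 10 reads at the E2F4 summit and 2 and 205 at the RNA Pol II summit, and WCE replicate 2 had 10 and 9. E2F4 at the polymerase summit thus stood at 8 against 15 reads on chromosome 10 and at 2 against 15 on chromosome 16.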

How the data were processed

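The authors deposited lists of read positions whose sign gives the strand. Per the file headers, bowtie placed the reads on mm8 (options -e 70, -k 2, -m 2 and -n 2, with a seed length -l of 36 for H3K27me3 and WCE replicate 2 and of 26 otherwise), and no source used here gives its version. Sonicated fragments averaged 500 bp and gel slices of 150 to 350 bp were taken, per the labels' protocols. Reads of the section with 1 placement were kept once per position and strand, which removed 19.0% of E2F4 and 10.4% of RNA Pol II reads. The 5′ ends were moved 60 bp downstream and counted in bins of 500 bp. Positions were read as the leftmost base on both strands, and bins start at position 1. The strand distance of WCE replicate 2, 153 bp at a read length of 36 bp, cannot by itself settle that reading. Whether positions count from 0 or 1 is not stated, so bounds may be off by 1 bp. The section with an even number of lines was read as reads listed at 2 places and used only as an alternative.

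Ratios were scaled by autosomal totals. With 1 library per antibody no test was made, and intervals are exact at 95%. Those of ratios cover counting error, those of shares of regions take regions as independent, and neither covers a repeat of the experiment. Named bins are the 5 whose ratio had the highest lower limit, the 5 with the lowest upper limit and the 5 with most reads, 1 per joined region, and for summits the 3 longest distances. The members, lists and alternatives were chosen with earlier results of these data known. Bins with at least 100 reads of WCE replicate 2 were left out in an alternative chosen after seeing the data. Scripts ran in Python 3.11.15 with numpy 2.4.6, scipy 1.17.1 and matplotlib 3.10.9 and were tested on simulated data. Chromosomes X and Y were left out. Gene names were not assigned, because coordinates in the only gene table (GRCm38.p6) do not match mm8.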

Additional observations from a re-analysis of the deposited data

Results flagged for a closer look

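Reads listed at 2 places, which the comparisons do not use, also piled up. They reached at least 20 over both libraries in 1772 autosomal bins, of which 953 lay outside the compared bins. In the 1772 bins RNA Pol II was higher in the median, 5.94-fold by share of such reads, with 1278 bins at least 3-fold higher for RNA Pol II and 89 for E2F4. Over the 26734 compared bins the median was 4.44-fold and the counts were 17296 and 1113, so the lean was of the same kind. In the 1772 bins WCE replicate 2 had 163 times its mean number of such reads per bin, E2F4 247 times and RNA Pol II 792 times. The bins were chosen on these reads of E2F4 and RNA Pol II, which raises the values of both. WCE replicate 2 took no part in the choice, so the 3 values cannot be compared directly.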

How the results depend on the processing

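The median stayed on the side of RNA Pol II in all 14 alternatives. All 60 values recomputed for the 10 bins of extreme ratio kept their side. Those bins were chosen for limits far from 1, and the other scales moved log2 ratios only by -1.13 and 1.30. That outcome was therefore set largely by the choice of bins and is not a check of them. Of 30 ratios recomputed for the 5 bins with most reads, 15 left the interval of the main value, all of them with repeats of a position kept or on another scale. The median log2 ratio of -2.15 became -3.28 scaled on background bins and -0.85 scaled on the compared bins, -2.30 and -1.97 with bins of 250 and 1000 bp, -1.93 and -2.22 with at least 10 and 40 reads, -2.18 with reads listed at 2 places, -2.11 with bins chosen after scaling and -2.40 without the bins above the 99th percentile of WCE reads. The number of bins was 42683 and 17396 with at least 10 and 40 reads. Bins with E2F4 at least 3-fold higher numbered 482 on the background scale, 2576 on the scale of the compared bins, 2086 with at least 10 reads and 387 without the bins above the WCE percentile, where 10312 bins were left. Those with RNA Pol II at least 3-fold higher numbered 8134 on the scale of the compared bins and 7218 without the bins above the WCE percentile. As shares of the 10312 bins left there, E2F4-rich bins made up 3.75% and RNA Pol II-rich bins 69.9961%. With at least 10 reads the shares were 4.89% and 58.3%. The main shares were 4.16% and 64.7%, so the counts in these 2 alternatives moved more than the shares. The median summit distance was 121.5 bp with 5′ ends not moved, 127.5 and 99.5 bp with summits in the densest 100 and 400 bp, 91.5 bp with the median of all reads, 124 and 114 bp with at least 10 and 40 reads in a bin and 134.5 bp with at least 30 reads of each library. The share of summits within 100 bp was 41.3% and 50.4% for the densest 100 and 400 bp, 53.5% for the median of all reads, 41.9% and 45.1% with at least 10 and 40 reads, 44.9% in regions not widened and 38.0% with at least 30 reads of each library. Beyond the fewer bins or regions that some of these leave by construction, the cause was not tested. The depth of 1 library per antibody limits the ratio in bins near 20 reads. No paired analysis was possible because each antibody has 1 library.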
